A study of Mus musculus with 8 samples.

Results

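The genes described here are 10 genes of calcium cycling at the endoplasmic and sarcoplasmic reticulum: the pump genes Atp2a1, Atp2a2 and Atp2a3, the small pump regulator Sln, the release channel genes Ryr1, Ryr2, Itpr1 and Itpr2, and the calcium-binding calsequestrin genes Casq1 and Casq2. They were listed by name, and each was read through the single-symbol probe set with the highest mean over all arrays. Of the 10 genes, 9 had such a probe set among the 22180 genes of the array that did. Itpr1 had none and is not analysed here. The genes were compared with skeletal muscle genes such as Acta1, to see which isoforms moved with muscle transcripts from animal to animal and which did not.

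Calcium in the reticulum is kept high by SERCA pumps, the products of the Atp2a genes, and is let out through ryanodine receptors (Ryr) and inositol trisphosphate receptors (Itpr). Atp2a1 and Casq1 are known mainly from fast skeletal muscle and Ryr1 from skeletal muscle in general, Ryr2 and Casq2 as those of heart, and Atp2a2 and the Itpr genes are used widely. In fat that lacks or does not use uncoupling protein, SERCA activity that consumes ATP with little net calcium transport has been described as a source of heat, and sarcolipin, the product of Sln, uncouples the pump in muscle.

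The tissue was brown fat of male mice on a C57BL/6J background, 1 animal per array. By their labels 3 animals were wild type (WT) and 5 carried a knockout of Abhd15 (Abhd15 KO), which codes for a protein of adipocytes with a hydrolase-like fold. All animals were 14 weeks old, had been kept on normal chow, were fasted overnight and then had food again for 1 h. How the gene was deleted, and the litters, cages and harvest days, are not given in the sources used here. The p-values measure the spread between these animals.

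The values are deposited log2 levels from 1-colour Mouse Gene 2.0 ST arrays, on which a difference of 1 is a doubling. A dim limit of 2.88 log2 was drawn from odour and pheromone receptor genes, which are presumed silent in this tissue, and 13223 genes that exceeded it in 3 or more arrays entered the tests. Abhd15 itself did not separate the groups (5.68 to 6.35 log2 over the 8 arrays, a mean 0.11 higher in the arrays labelled Abhd15 KO, exact two-sided permutation p = 0.518). Which exons were deleted, and so whether its probes could show the deletion, is not known here. Directions therefore rest on the labels alone. Of 14 brown adipocyte markers 13 had a single-symbol probe set, each above the limit on all 8 arrays, from Ucp1, the uncoupling protein (12.51 to 12.89 log2), down to Prdm16 (4.95 to 6.00) and Dio2 (4.47 to 8.32).

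Atp2a1, the pump of fast muscle fibres, varied 14.7-fold between animals. WT replicates 1 to 3 read 9.88, 8.67 and 6.69 log2, and replicates 1 to 5 labelled Abhd15 KO read 8.17, 5.999, 7.90, 9.07 and 8.29. The highest and the lowest animal came from different groups, and the groups overlapped over most of the range. Ryr1, the release channel of skeletal muscle, varied 11.1-fold, with 7.17, 5.70 and 4.24 log2 in WT and, under the Abhd15 KO label, 5.25, 3.70, 4.93, 6.27 and 5.63 in the same replicate order. Casq1, which stores calcium beside that channel, read 6.998, 6.50 and 3.10 log2 in WT and, under the Abhd15 KO label, 5.75, 3.18, 5.39, 5.83 and 5.60. All 3 genes were high in WT replicate 1 and low in WT replicate 3 and replicate 2 labelled Abhd15 KO. Their residual SDs within groups were at percentiles 99.84, 99.64 and 99.98 of all tested genes in that order.

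The other isoforms varied far less. Atp2a2, the widely used pump gene, read 10.03, 9.53 and 9.64 log2 in WT and, under the Abhd15 KO label, 9.71, 9.73, 9.58, 9.89 and 9.92, a range of 1.41-fold. Atp2a3, a pump isoform known from blood cells and endothelium, read 4.89, 4.93 and 4.93 in WT and, under the Abhd15 KO label, 5.44, 4.95, 4.99, 4.53 and 4.82. Casq2, the calsequestrin of heart, stayed close to the dim limit at 3.40, 3.46 and 3.44 log2 in WT and, under the Abhd15 KO label, 3.27, 3.04, 3.66, 3.30 and 3.57. The groups overlapped in each of these 3 genes. Itpr2, an inositol trisphosphate receptor, read 8.88, 9.45 and 9.02 log2 in WT and, under the Abhd15 KO label, 9.24, 9.05, 9.40, 8.86 and 8.89, and its groups overlapped too. Residual SDs of Atp2a2, Atp2a3, Casq2 and Itpr2 lay at percentiles 37.16, 61.77, 42.91 and 58.18.

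Sln and Ryr2 were dim and were not tested. Sln was above the limit in 2 arrays, WT replicate 1 (3.08 log2) and replicate 4 labelled Abhd15 KO (3.45), which were also the arrays highest in Atp2a1. In the other 6 arrays it read between 1.72 and 2.30, where values have no order. Ryr2, the release channel of heart, was above the limit in 0 of 8 arrays, with a highest reading of 2.67. Heart muscle markers were mixed: of 9 listed, Myh6, Nppb and Mybpc3 were above the limit in 0 arrays and Myl7 in 1. Tnni3 (3.20 to 4.18 log2) and Tnnt2 (3.27 to 3.91) were above it in all 8, Nppa and Myl4 in 6 and Actc1 in 5. A second probe set of Ryr1 was dimmer, at 2.31 to 3.28 log2 and above the limit in 4 arrays.

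**Figure D1:**
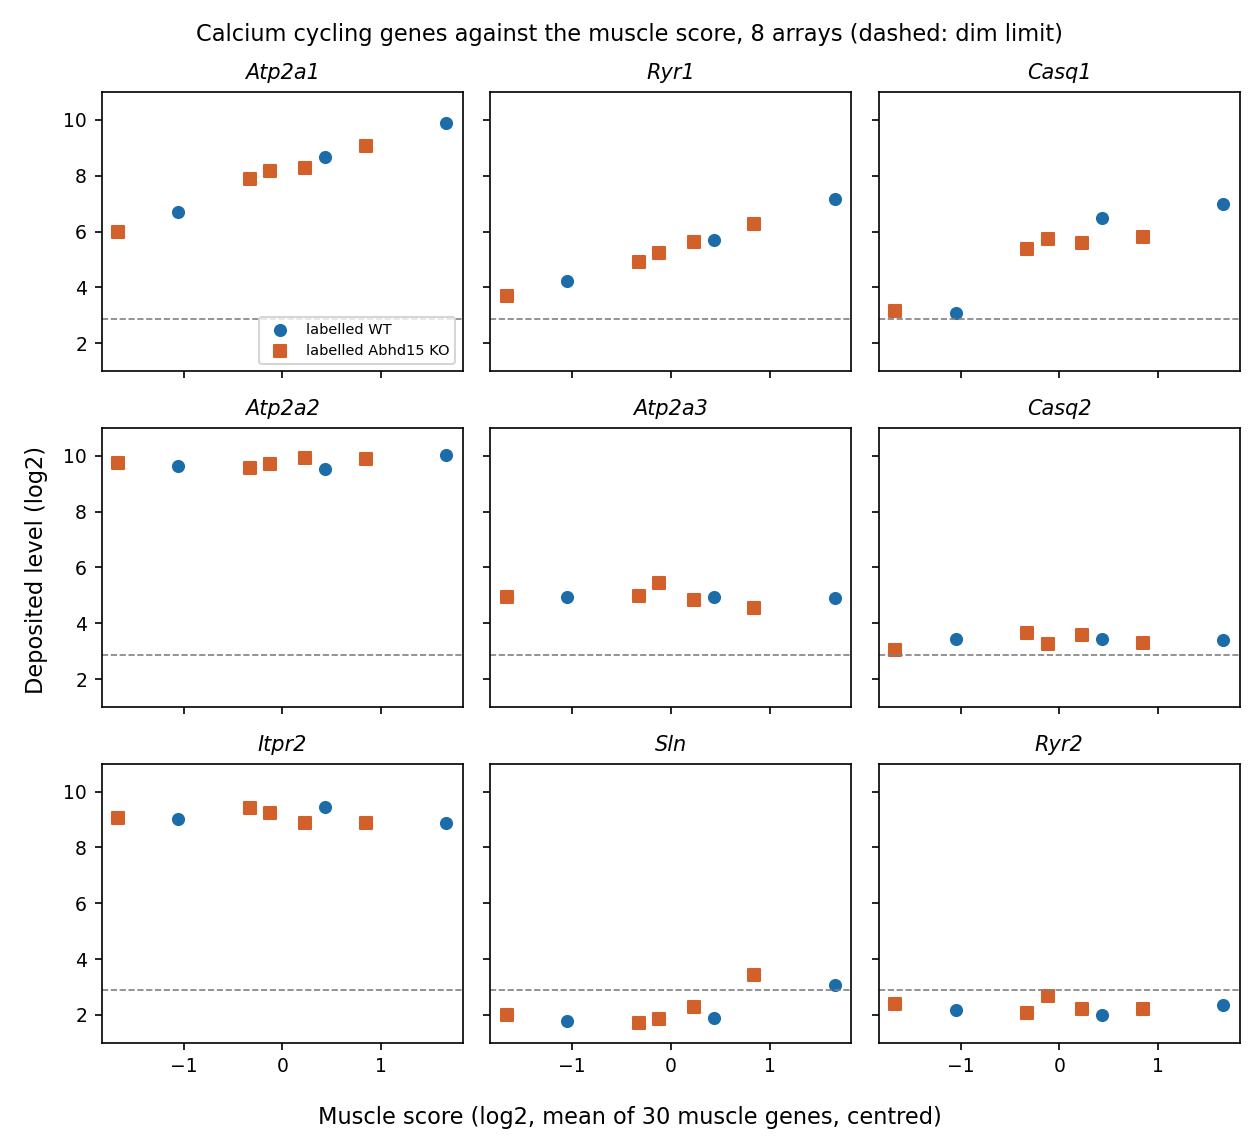
Deposited log2 level of each gene (vertical axis) against the muscle score (horizontal axis, log2) in the 8 arrays, circles for WT and squares for arrays labelled Abhd15 KO, with the dim limit of 2.88 dashed. Atp2a1, Ryr1 and Casq1 climb with the score in both groups, Atp2a2, Atp2a3, Casq2 and Itpr2 lie nearly flat, and Sln passes the limit only in the 2 arrays with the highest score.

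To put a number on how far each isoform moved with muscle transcripts, a muscle score was taken as the mean of 30 sarcomere and muscle enzyme genes, each relative to its own mean over the 8 arrays. None of the calcium genes is in that list, and all 30 were above the dim limit in at least 3 arrays. WT replicates 1 to 3 scored 1.66, 0.43 and -1.05, and replicates 1 to 5 labelled Abhd15 KO scored -0.12, -1.66, -0.33, 0.84 and 0.23, so that the extremes again lay in different groups. In bulk tissue, fewer muscle cells and less RNA per muscle cell cannot be told apart. Each gene was fitted with limma on the group and the score together, so that a slope of 1 means that a gene moved as the average muscle gene did.

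Atp2a1, Ryr1 and Casq1 rose with the muscle score about as steeply as the muscle genes themselves, and the other 4 tested genes did not pass the test. The slope was 1.2 for Atp2a1 (SE 0.07, 95% confidence interval 1.04 to 1.36, limma adjusted p = 0.000131). It was 1.05 for Ryr1 (SE 0.05, 0.93 to 1.18, limma adjusted p = 0.000124) and 1.29 for Casq1 (SE 0.19, 0.86 to 1.73, limma adjusted p = 0.0212). Acta1, the actin of skeletal muscle and one of the 30 genes of the score, had a slope of 1.15 (0.97 to 1.33) for scale. Thus 3 of the 7 tested calcium genes were called in the rising direction and 0 in the falling one, where the same rule called 0.62% and 0% of all tested genes. The median slope was 0.11 over the 7 genes and -0.01 over all genes tested. Of the 82 genes called in all, 26 belong to the list that made the score.

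The slopes of the remaining isoforms lay near 0, with intervals that end well short of 1. Atp2a2 had a slope of 0.11 (-0.05 to 0.26, limma adjusted p = 0.960), Casq2 of 0.06 (-0.12 to 0.24), Itpr2 of -0.06 (-0.27 to 0.15) and Atp2a3 of -0.07 (-0.29 to 0.15). Small slopes of either sign inside these intervals cannot be told from 0 with 8 arrays. The slopes describe the whole tissue sample, so how these genes moved within muscle cells alone was not measured. Casq2, at 3.04 to 3.66 log2, lay near the dim limit of 2.88, which limits what its slope can show.

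The order of the animals was compared gene by gene as well. Atp2a1 and Ryr1 each ranked the 8 arrays exactly as the muscle score did (Spearman rho = 1, exact two-sided permutation p = 4.96e-05, the smallest that 8 arrays allow). Pearson's r was 0.992 for Atp2a1 and 0.998 for Ryr1, each with an exact two-sided permutation p of 2.48e-05, again the smallest possible. Without the 2 arrays farthest from the median score, WT replicate 1 and replicate 2 labelled Abhd15 KO, r was still 0.983 and 0.996. For Casq1 r was 0.918 (exact permutation p = 0.00134), rho was 0.929 (exact permutation p = 0.00223), and r without those arrays was 0.845. For Atp2a2 r was 0.558 (exact permutation p = 0.153) and rho 0.429 (exact permutation p = 0.299), and without those arrays r was 0.440. In Casq2, Itpr2 and Atp2a3 r was 0.329, -0.239 and -0.295 and rho 0.119, -0.429 and -0.571, with exact permutation p between 0.151 and 0.793 over the 6 values. Correlations with the score were computed for 9 genes, and adjustment over all genes tested is that of the slopes above. After removal of each group's mean, r was 0.993 for Atp2a1, 0.998 for Ryr1 and 0.923 for Casq1.

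The call for Casq1 was less firm than those for Atp2a1 and Ryr1. Both of these kept an adjusted p of 0.00494 or less by limma when each array was left out in turn. Casq1 lost its call without WT replicate 1 (slope 1.39, limma adjusted p = 0.128), WT replicate 3 (0.98, adjusted p = 0.210), replicate 2 labelled Abhd15 KO (1.26, adjusted p = 0.180) and replicate 5 labelled Abhd15 KO (1.30, adjusted p = 0.0554). With slow fibre genes in place of the muscle score, limma no longer called Atp2a1 (slope 1.63, adjusted p = 0.0881) or Casq1 (1.62, adjusted p = 0.433) and still called Ryr1. On that reference the slope was 0.19 for Atp2a2 (limma adjusted p = 0.766), 0.04 for Casq2, -0.19 for Atp2a3 and -0.16 for Itpr2, none of them called. With its dimmer probe set averaged in, the slope of Ryr1 was 0.62 (limma adjusted p = 0.00354). With WT replicate 1 and replicate 2 labelled Abhd15 KO both left out, a setting chosen after the data were seen, limma called 0 genes of any kind, and 691 had an unadjusted p under 0.05. The slopes there were 1.18 for Atp2a1, 1.04 for Ryr1 and 1.45 for Casq1.

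Pairs of isoforms, or of genes with related roles, were then set against each other. The test asked whether the log2 difference of a pair within each array changed with the muscle score. Of 8 pairs listed, 4 had both genes above the dim limit, and all 4 differed. Each of the 4 sets a gene called in the muscle fit against one not called, on the same arrays and score. The differences thus largely restate the slopes and are no separate evidence. Atp2a1 also serves in the pairs of both Atp2a2 and Atp2a3. The slope of Atp2a1 exceeded that of Atp2a2 by 1.09 (95% confidence interval 0.83 to 1.35, exact two-sided permutation p = 0.000124, adjusted over the pairs 0.000248) and that of Atp2a3 by 1.25 (1.06 to 1.44, exact permutation p = 7.4e-05, adjusted 0.000248). Casq1 exceeded Casq2, which lay near the dim limit, by 1.19 (0.65 to 1.73, exact permutation p = 0.00198, adjusted 0.00198). The ryanodine receptor gene Ryr1 exceeded Itpr2, a release channel gene of another family, by 1.10 (0.82 to 1.38, exact permutation p = 0.000198, adjusted 0.000265). Over the 8 arrays Atp2a1 moved over 3.88 log2 units while Atp2a2 moved over 0.49. No array probe's level is set against another's here, so which pump is the more abundant in a sample was not measured.

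**Figure D2:**
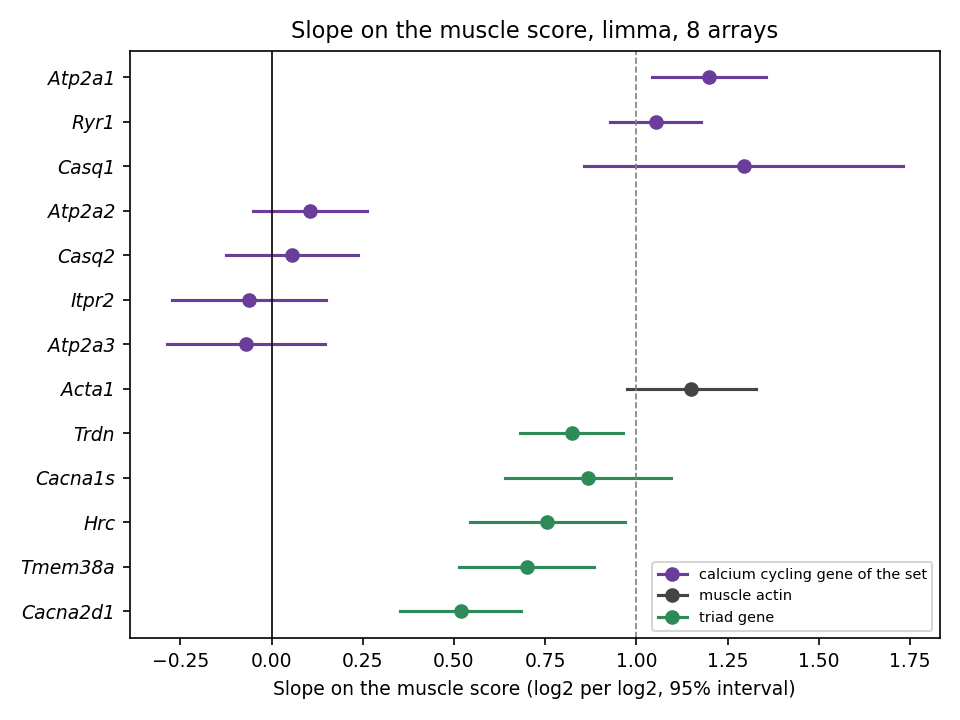
Slope on the muscle score (horizontal axis, log2 per log2) with its 95% confidence interval from limma over 8 arrays. Shown are the 7 tested calcium cycling genes, Acta1 and the 5 triad genes, of 19 tested, that passed the test. Atp2a1, Ryr1 and Casq1 lie around the dashed line at 1, and Atp2a2, Casq2, Itpr2 and Atp2a3 lie around 0. The triad genes shown, picked for passing, lie between 0.52 and 0.87.

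Promoter sequence is shown for 3 isoforms that were called in the muscle fit and for 2 relatives that were not. Their upstream regions can thus be read side by side. The RefSeq tables of build GRCm38.p6 held a promoter window for 7 of the 10 genes. The bases printed lie before the outermost RefSeq start of the gene, at chr7:126463104-126463323, minus strand, for Atp2a1, chr7:29125180-29125401, minus strand, for Ryr1, chr1:172219896-172220145, minus strand, for Casq1, chr11:72960919-72961168, plus strand, for Atp2a3 and chr3:102086165-102086414, plus strand, for Casq2. Each runs 5′ to 3′ on the gene's strand, and capitals mark E-boxes (CANNTG, the same on both strands), the motif that muscle regulators of the MyoD family bind.
Atp2a1: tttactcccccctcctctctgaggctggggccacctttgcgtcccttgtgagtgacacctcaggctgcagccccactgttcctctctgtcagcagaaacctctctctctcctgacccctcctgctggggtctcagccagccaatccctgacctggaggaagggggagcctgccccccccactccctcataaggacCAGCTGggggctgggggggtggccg
Ryr1: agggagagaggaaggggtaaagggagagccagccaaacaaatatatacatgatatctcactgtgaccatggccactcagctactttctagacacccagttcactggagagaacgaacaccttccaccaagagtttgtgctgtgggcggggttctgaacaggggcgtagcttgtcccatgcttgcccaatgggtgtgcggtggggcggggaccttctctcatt
Casq1: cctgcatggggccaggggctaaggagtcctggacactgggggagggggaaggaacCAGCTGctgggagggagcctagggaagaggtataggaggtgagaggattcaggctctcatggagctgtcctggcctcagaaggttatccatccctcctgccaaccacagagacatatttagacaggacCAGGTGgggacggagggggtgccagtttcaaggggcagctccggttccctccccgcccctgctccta
Atp2a3: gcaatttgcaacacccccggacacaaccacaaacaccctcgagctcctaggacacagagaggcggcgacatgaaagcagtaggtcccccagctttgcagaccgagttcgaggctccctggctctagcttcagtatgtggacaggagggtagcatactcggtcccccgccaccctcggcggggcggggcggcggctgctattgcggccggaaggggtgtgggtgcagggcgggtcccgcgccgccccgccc
Casq2: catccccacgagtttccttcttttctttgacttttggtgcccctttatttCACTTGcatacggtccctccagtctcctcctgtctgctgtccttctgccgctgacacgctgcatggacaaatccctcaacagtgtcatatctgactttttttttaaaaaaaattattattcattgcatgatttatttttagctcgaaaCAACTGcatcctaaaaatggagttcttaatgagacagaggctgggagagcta

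E-box matches were found in genes of both kinds. For Atp2a1 and Ryr1 the outermost start lies upstream of the start the table uses, so their printed stretches are shorter than the window searched. In the 250 bases before the start that the table uses, Atp2a1 had 1 E-box, of the form CAGCTG, 55 bases before the start, and Casq1 had 2, CAGCTG at 195 and CAGGTG at 67. Casq2, which did not pass the test, also had 2, CACTTG at 200 and CAACTG at 52, and it alone of the 7 genes had a match to the MEF2 site, 69 bases before the start. Ryr1, Atp2a3 and Itpr2 had 0 E-boxes in this window, and Ryr2 had 2. Of 32851 promoter windows of that length, 66.2% held an E-box, 13% the form CAGCTG (also counted as an E-box) and 2.92% a match to the MEF2 site on either strand. A match is a string of letters and not a site shown to be bound.

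Between the labelled groups no calcium gene passed the test. For Atp2a1 the WT mean was 8.41 ± 1.61 log2 (SD, n = 3) and the mean under the Abhd15 KO label was 7.89 ± 1.14 (SD, n = 5). The second was thus -0.53 from the first (95% confidence interval -2.28 to 1.22, exact two-sided permutation p = 0.607). Ryr1 differed by -0.55 (-2.08 to 0.99) and Casq1 by -0.38 (-2.41 to 1.65). The intervals of these 3 genes are wide beside those of the other 4, as the spread inside their groups was. Atp2a2 read 9.73 ± 0.26 and 9.77 ± 0.14 in that order, 0.03 apart (interval -0.29 to 0.35, exact permutation p = 0.821). Atp2a3 differed by 0.03 (-0.38 to 0.44), Casq2 by -0.06 (-0.40 to 0.28) and Itpr2 by -0.03 (-0.42 to 0.37). By limma 0 of the 7 tested genes were called, and 0% of all 13223, of which 528 had an unadjusted p under 0.05. The groups overlapped in all 9 genes with a probe set, where 2.77% of all tested genes had groups that did not overlap. The median difference was -0.06 over the 7 genes and 0.01 over all genes tested.

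With the muscle score as a covariate, the fit gives the group difference at equal muscle score. That is another quantity than the difference above and not a closer measure of it. Its intervals were narrower for the muscle isoforms. For Atp2a1 the difference at equal score was 0.14 (-0.18 to 0.45), for Ryr1 0.04 (-0.22 to 0.29) and for Casq1 0.34 (-0.55 to 1.22). Each thus had the opposite sign, and none passed by limma (adjusted p = 0.9999 in each). The residual SD of Atp2a1 went from 1.32 to 0.16 log2, that of Ryr1 from 1.15 to 0.08 and that of Casq1 from 1.53 to 0.64. For Atp2a2, Atp2a3, Casq2 and Itpr2 the differences with the score in the fit lay between -0.06 and 0.09, and that of Atp2a3 also changed sign (-0.01).

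**Figure D3:**
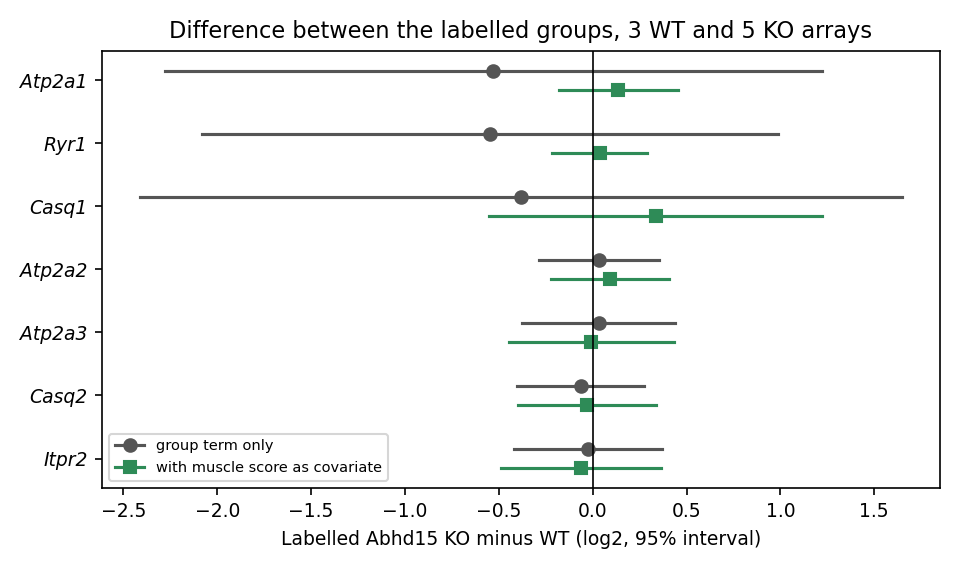
Difference between arrays labelled Abhd15 KO and WT (horizontal axis, log2) with its 95% confidence interval from limma, for the 7 tested genes, with the group term only (circles) and with the muscle score as a covariate (squares). The intervals of Atp2a1, Ryr1 and Casq1 shrink once the score is in the fit, and every interval covers 0.

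Other calcium handling genes were read from lists covering SERCA regulators, the release complex and triad, the inositol trisphosphate pathway, luminal buffers, store-operated entry, plasma membrane and Golgi transport, mitochondrial uptake, and reticulum leak with calmodulin kinases. Of 105 genes listed, 84 were tested. In the muscle fit 5 of the 84 rose with the score and 0 fell, where the same rule called 0.62% and 0% of all tested genes. All 5 were among the 19 tested genes of the release complex and triad. The triad is the junction where the muscle surface membrane meets the reticulum. Between the labelled groups 0 of the 84 genes passed in either direction. The 2 of lowest unadjusted p were Rcn3, a calcium-binding protein of the reticulum (-0.37, -0.66 to -0.07), and Trpc1, a cation channel (0.37, 0.06 to 0.69), each with a limma adjusted p of 0.9997.

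The 5 triad genes lay between 0.52 and 0.87 in slope. Trdn, which anchors calsequestrin to the ryanodine receptor, had a slope of 0.82 (0.68 to 0.96, limma adjusted p = 0.000558). Cacna1s, the voltage sensor that opens Ryr1 in muscle, had 0.87 (0.64 to 1.09), and its partner subunit Cacna2d1 0.52 (0.35 to 0.68). Tmem38a, a cation channel that balances charge during calcium release, had 0.70 (0.51 to 0.88), and Hrc, a histidine-rich calcium-binding protein of the reticulum, had 0.76 (0.54 to 0.97). Trim72, a membrane repair protein of muscle, had 0.63 (0.36 to 0.91) and missed the threshold (limma adjusted p = 0.0874). In the whole triad list 18 of 19 slopes were above 0, with a median of 0.21. Over the 84 genes, which include that list, 48 slopes were above 0 and the median was 0.01. The median over all genes tested was -0.01. Left out in turn, single arrays ended no call for Trdn, but WT replicate 1 and WT replicate 3 each ended those for Cacna1s, Tmem38a, Hrc and Cacna2d1, and replicate 2 labelled Abhd15 KO those for Hrc and Cacna2d1. With slow fibre genes in place of the muscle score the limma calls of Cacna1s (adjusted p = 0.147), Hrc (0.0595) and Cacna2d1 (0.182) also ended, and with Acta1 in its place that of Hrc (0.0514). Over the omitted arrays their limma adjusted p ranged up to 0.0839 for Cacna1s, 0.0970 for Tmem38a, 0.104 for Hrc and 0.179 for Cacna2d1.

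Outside the triad no list held a gene that passed in the muscle fit. Median slopes were -0.01 for 5 tested SERCA regulators, -0.10 for 11 genes of the inositol trisphosphate pathway, 0.01 for 10 luminal buffers, -0.01 for 10 genes of store-operated entry, 0.05 for 8 membrane transporters, -0.03 for 11 mitochondrial genes and 0.02 for 10 leak and kinase genes. Some genes are added here for their roles, after their values were seen. Pln (phospholamban), the pump inhibitor of heart, read between 2.80 and 3.77 log2, with a slope of 0.01 (-0.27 to 0.29). Mrln (myoregulin), the pump inhibitor of skeletal muscle, was above the dim limit in 1 array, WT replicate 1 (2.96), and Ryr3 and Fkbp1b in 0. The luminal chaperone Calr had a slope of -0.00 (-0.12 to 0.12), the store sensor Stim1 -0.00 (-0.15 to 0.14) and Mcu, the mitochondrial uniporter, -0.03 (-0.19 to 0.14). The inositol trisphosphate receptor gene Itpr3 had -0.19 (-0.39 to -0.002, limma adjusted p = 0.805). Of the triad list, Jph2 had 0.32 (0.10 to 0.54, limma adjusted p = 0.489) and Cacng1 0.34 (0.07 to 0.62, adjusted p = 0.622). Jph1, Cacnb1, Jsrp1 and Tmem38b had 0.19, 0.17, 0.12 and 0.06, with intervals that covered 0. None of these genes was called.

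**Figure D4:**
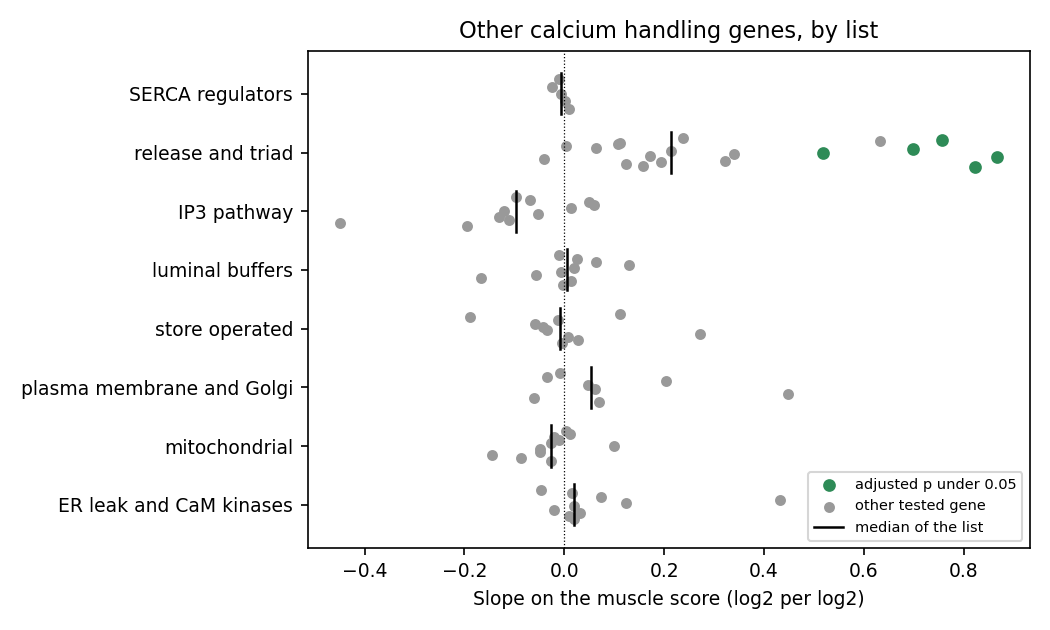
Slope on the muscle score (horizontal axis, log2 per log2) of each tested gene in the 8 calcium handling lists, with genes past an adjusted p of 0.05 in green and a bar at each list's median. The 5 green points all lie in the release and triad list, between 0.52 and 0.87.

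For each isoform the 3 genes most like it in pattern over the 8 arrays were listed. Predicted gene models, genes with only a clone name, and small RNAs such as microRNAs were left out. For Atp2a1 they were Acta1 (r = 0.998), the fast myosin-binding gene Mybpc2 (0.994) and the fast troponin gene Tnnt3 (0.994). For Ryr1 they were Klhl38 (0.998), the muscle glycogen phosphorylase gene Pygm (0.995) and Trdn (0.994), and for Casq1 they were Ankrd23 (0.978), Mylk4 (0.975) and Tcea3 (0.971). For Atp2a2 they were Bmpr1a (0.980), Ipo13 (0.971) and Slc3a2 (0.958), whereas its r with Acta1 was 0.480. Atp2a3 was most like Tgfb1i1 (0.969), Sh2d5 (0.964) and Bbs9 (0.961), Casq2 most like Cdc40 (0.941), Sdf2l1 (0.940) and Ext1 (0.929), and Itpr2 most like Igfbp7 (0.985), the clock gene Per3 (0.976) and Fbxo36 (0.969). The genes listed were picked as the highest of the tested genes that remained, so a high r is built into the choice and carries no test.

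The 4 isoforms that did not pass in the muscle fit were also set against marker scores of other cells of the tissue, a step added after the data were seen. Over brown adipocytes, endothelium, macrophages, smooth muscle with pericytes, and lymphocytes with platelets, 20 relations were computed over 8 arrays. The strongest by Pearson's r were Casq2 with smooth muscle and pericyte genes (r = -0.626, exact permutation p = 0.0951, rho = -0.690, exact permutation p = 0.0694) and Atp2a2 with the same genes (r = 0.612, exact permutation p = 0.109, rho = 0.643, exact permutation p = 0.0962). Without the 2 arrays farthest from the median of that score r was -0.727 and 0.658. After adjustment over the 20 relations the smallest value was 0.601 for r and 0.708 for rho in the exact permutation tests, so none passed.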

How the data were processed

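RNA of brown fat was measured on 1 array per mouse, 3 WT and 5 labelled Abhd15 KO. The authors deposited 1 log2 value per probe set, made with RMA and oligo per the submitters' processing notes, while the design text per the labels names Expression Console. Versions and genome build are not given in the sources used here. RMA evens out the array distributions, which hides any shift common to most genes.

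Names came from the platform annotation, in which 23521 probe sets had 1 symbol, 1814 several and 16010 none. The probe set with the highest mean stood for a gene. The dim limit is the 95th percentile of 1400 olfactory and vomeronasal receptor probe sets. Arrays give no read depth, and their number limits the precision.

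Groups and muscle slopes were fitted across all genes with limma 3.58.1 in R 4.3.3 (lmFit, eBayes), p-values being adjusted by Benjamini-Hochberg over all 13223 tested genes and called under 0.05. Single values were tested by exact permutation, over 56 splits for groups and 40320 orderings for correlations. The steps were tested on simulated data. Genes, lists and tests were chosen with earlier results of these data known. Named from the lists were the 5 genes of lowest p and of largest slope in the muscle fit and the 2 of lowest p between groups. Named for likeness were the 3 genes of highest r, with predicted gene models, clone-named genes and small RNAs left out. The muscle list genes of highest and lowest slope were Myh1 (1.41), Myot (1.38), Tmod4 (0.46) and Myl1 (0.39). Marker lists of nerve with Schwann cells (3 of 10 above the limit) and heart muscle (5 of 9) served only as level checks. Alternatives were other filters, normalizations, covariates, muscle references and omitted arrays.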

Additional observations from a re-analysis of the deposited data

Results flagged for a closer look

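Among the 5 arrays labelled Abhd15 KO, Casq1 in replicate 2 (3.18 log2) lay far below the other 4, which read 5.39 to 5.83. The same array was lowest in Atp2a1, Ryr1 and the muscle score. Of 10 sets of 5 values examined this way it was the only one so marked, and chance marks about 1 in 20.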

How the results depend on the processing

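The 4 pair differences kept their direction and stayed past the threshold under all 11 alternatives run for each. Those were centring on group means, Acta1 as reference, the mean of probe sets and each array left out in turn. The replicate block, the slow fibre reference and the omission of both extreme arrays, which ended slope calls, were not run for the pairs. The count of 82 genes called in the muscle fit ranged from 40 to 88 when single arrays were left out, with 41 without WT replicate 1 and 40 without WT replicate 3, and it was 0 without both WT replicate 1 and replicate 2 labelled Abhd15 KO. With the replicate number as a block it was 0 as well (417 at an unadjusted p under 0.05), and between groups 0 with 422. That block leaves 1 residual degree of freedom in the muscle fit, and same-numbered arrays did not deviate together (correlations -0.26, -0.10 and 0.02), so the numbers are not taken as pairs. Under the block slopes were 1.30 for Atp2a1, 0.99 for Ryr1, 1.77 for Casq1, -0.021 for Atp2a2 and 0.17 for Itpr2, and group differences -1.06 for Atp2a1, -1.08 for Ryr1, -0.76 for Casq1, 0.21 for Atp2a3, -0.11 for Casq2, -0.058 for Atp2a2 and 0.12 for Itpr2, none called by limma. The 5 triad genes lost their calls under the block too. With slow fibre genes as reference Atp2a1 (slope 1.63, limma adjusted p = 0.0881) and Casq1 (1.62, adjusted p = 0.433) were not called and Ryr1 was (1.5, adjusted p = 0.0293). With the muscle score as covariate the group difference was 0.14 for Atp2a1, 0.037 for Ryr1, 0.34 for Casq1 and -0.0077 for Atp2a3. The Casq2 slope was -0.073 without both arrays named above. Leaving out single arrays, group differences ranged from -1.39 to 0.20 for Atp2a1, -1.28 to 0.19 for Ryr1, -1.60 to 0.35 for Casq1, -0.067 to 0.18 for Atp2a2, -0.091 to 0.14 for Atp2a3, -0.14 to 0.019 for Casq2 and -0.15 to 0.14 for Itpr2. Slopes ranged from -0.12 to 0.0068 for Atp2a3, -0.045 to 0.10 for Casq2 and -0.15 to 0.0061 for Itpr2. None of these reversed values passed in either fit. The group count was 0 under all 16 alternatives. Where a call was lost the cause was not tested. Some calls ended with fewer arrays fitted, others with all 8 arrays under the block or with another muscle reference. Sln, Ryr2 and Casq2 are limited by signal near the dim limit. So is Casq1 in WT replicate 3 (3.10 log2) and replicate 2 labelled Abhd15 KO (3.18). The lowest readings of Hrc (2.38) and Trim72 (2.35) were below the limit.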
